A study of Mus musculus with 2 samples.

Results

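Mir126a, Mir221 and Mir222 are miRNA genes known from blood vessels, and all 3 were found by symbol among the 1973 miRNA genes counted in embryonic mouse stomach. The rule picks them by symbol and uses no count, although they were chosen with earlier results of these data known. Small RNA under 30 nt was sequenced from whole stomach of B6NCrl embryos at 15.5 days, with replicate 1 made from 78 embryos and replicate 2 from 62. The embryos were healthy and of both sexes, no treatment is named, and the pools, labelled as biological replicates, carry the same donor label. With 1 group, the comparisons are between genes within a library and between the 2 pools, and p-values compare these libraries, not conditions. The libraries held 5988677 (replicate 1) and 6675498 (replicate 2) sense counts within miRNA genes, and levels are given as CPM, counts per 1000000 of these totals. A miRNA read spans the whole mature strand, so levels were not divided by gene length. A whole organ holds endothelium, muscle, epithelium, nerves and blood, and reads are not tied to cells: fewer cells of a type and less RNA per cell cannot be told apart.

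miRNAs are cut from hairpin transcripts and pair with target mRNAs mainly through the seed, bases 2 to 8 from the 5′ end of the mature strand. miR-126 comes from an intron of Egfl7, a gene of endothelial cells, and is known to strengthen growth factor signalling in endothelium by repressing Spred1 and Pik3r2. miR-221 and miR-222 come from neighbouring hairpins on the X chromosome that can share a primary transcript. They are broader: they repress Kit and the cell cycle inhibitor Cdkn1b, and are known from endothelium, vascular smooth muscle and blood progenitors.

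The mature sequences show what the genes share and what they do not. All 3 members matched RefSeq (GRCm38), which gave the following strands, with the seed in capitals:
miR-126a-3p: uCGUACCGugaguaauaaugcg
miR-221-3p: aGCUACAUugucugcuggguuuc
miR-222-3p: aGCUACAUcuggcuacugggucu
miR-221-5p: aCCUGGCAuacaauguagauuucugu

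miR-221-3p and miR-222-3p begin with the same 8 bases, so they carry 1 seed. Compared position by position without gaps, they are identical at 11 of 23 positions. An alignment that allows a shift was not run, so this count can understate their likeness beyond the seed. miR-126a-5p and miR-222-5p were not analysed here, so statements on seeds and shared stretches cover only the printed strands, while the counts can include both arms. Besides miR-221-3p and miR-222-3p, only miR-1928 has their seed among the mature names in the RefSeq table. Its gene Mir1928 had 0 counts in both libraries, which allows up to 0.501 CPM in replicate 1 and 0.449 CPM in replicate 2. The seed of miR-126a-3p occurs in no other mature name there. The longest stretch that a printed strand shares with another RefSeq hairpin, on either strand, was 9 bases for miR-126a-3p (Mir126b, which lies on the same bases, left out), 10 for the Mir221 strands and 11 for miR-222-3p. Since reads matching several places are not among the gene counts, genes with near-identical copies can lose reads. No such copy of the printed strands was found among the hairpins searched, and the rest of the genome was not searched.

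The hairpins show the whole span that each count covers, because the tables count a whole gene and do not separate its arms. They are shown with the mature strands that RefSeq lists in capitals:
Mir126a: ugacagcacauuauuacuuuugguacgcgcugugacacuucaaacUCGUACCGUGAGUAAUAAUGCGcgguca
Mir221: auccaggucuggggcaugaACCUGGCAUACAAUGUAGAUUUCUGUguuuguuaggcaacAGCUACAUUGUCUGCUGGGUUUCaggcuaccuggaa
Mir222: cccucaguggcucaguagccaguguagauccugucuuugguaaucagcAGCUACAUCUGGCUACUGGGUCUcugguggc

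In GENCODE M21 (mm10), Mir126a (ENSMUSG00000065540.1) lies at chr2:26591357-26591429 on the plus strand, inside Egfl7. Of the 9 Egfl7 transcripts that span it, 8 hold it in an intron and 1, a retained-intron transcript, in an exon. The protein-coding gene Gm20532 also spans it, with an intron. Mir221 (ENSMUSG00000065422.1) lies at chrX:19146294-19146388 and Mir222 (ENSMUSG00000065471.1) at chrX:19146893-19146971, both on the minus strand, with 504 bases between the hairpins. They lie in no other annotated gene, and the nearest is the non-coding Gm14636 on the same strand, 10010 bases from Mir222.

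By read counts, Mir126a was one of the most abundant miRNA genes of the stomach, while the clustered pair was of middling level. Mir126a had 156997 sense counts in replicate 1 and 167163 in replicate 2, which is 26216 and 25041 CPM. Its share of all sense counts was 2.62% in the first of these and 2.50% in the second, with 95% Wilson intervals of 2.61 to 2.63 and of 2.49 to 2.52. It ranked at place 8 in each library. Its mean of 25628 CPM had an SD of 830 (n = 2), or 3.24% of the mean.

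Mir221 had 1694 and 1123 counts, which is 283 CPM in replicate 1 and 168 CPM in replicate 2. Its mean was 226 ± 81.1 CPM (SD, n = 2), at place 147 in replicate 1 and 163 in replicate 2. Mir222 had 709 and 649 counts, or 118 and 97.2 CPM, with a mean of 108 ± 15.0 CPM and places 188 and 192. The Mir221 share was 0.0283% (0.0270 to 0.0297) and 0.0168% (0.0159 to 0.0178), and the Mir222 share 0.0118% (0.0110 to 0.0127) and 0.00972% (0.00900 to 0.0105). Summed, the pair came to 401 CPM in replicate 1 and 265 CPM in replicate 2. The order was Mir126a, then Mir221, then Mir222 in each library, and the values of neighbours in that order did not overlap: the lower Mir221 value, 168 CPM, was above the higher Mir222 value, 118 CPM. The SD relative to the mean was 35.9% for Mir221 and 13.9% for Mir222. The plot of member levels shows these values by library.

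**Figure D1:**
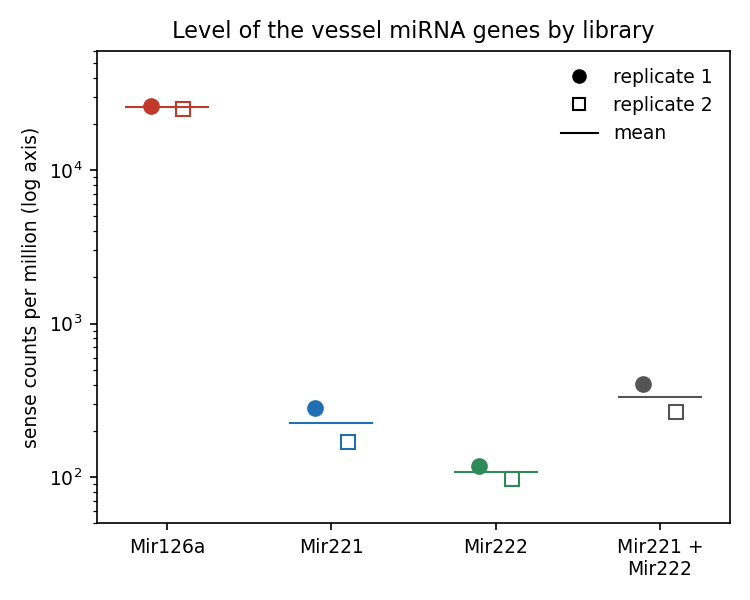
Level of Mir126a, Mir221, Mir222 and the summed pair in CPM (sense counts), on a log axis. Filled circles are replicate 1, open squares replicate 2 and lines the mean of both. Mir126a sits near 25628 CPM with the libraries almost on top of each other, and Mir221 spreads from 168 to 283 CPM.

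Within a library, Mir126a exceeded the summed pair 65.3-fold in replicate 1 (95% exact interval 62.8 to 68.0) and 94.3-fold in replicate 2 (90.0 to 98.9). These intervals, like those above, cover counting error only, since reads without molecular identifiers are not independent molecules. On the log2 scale the difference in level was 6.29 ± 0.37 (SD, n = 2), far more than the spread between the pools. Against Mir221 alone the fold was 92.7 in replicate 1 and 149 in replicate 2. Against Mir222 alone it was 221 and 258. This difference was not tested over the 2 libraries. The folds compare read counts of different sequences. Whether library preparation captures these sequences equally was not tested, and the spread between pools cannot show it.

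Genes of like level show where the members stand. The 2 genes just above Mir126a were Mir10a, which lies in a Hox cluster (38234 ± 6002 CPM), and Mir26b (32315 ± 6617 CPM). The 2 just below were Mir130a (22209 ± 2080 CPM) and Mir17, of the proliferation-linked miR-17-92 cluster (21613 ± 1665 CPM). None of these 4 had values that overlapped those of Mir126a, while Mir10a and Mir26b changed places with each other between the libraries. The neighbours of Mir221 were Mir185 (238 ± 36.1 CPM), Mir24-2 (227 ± 38.8 CPM), Mir340 (217 ± 5.79 CPM) and Mirlet7a-1 (207 ± 51.5 CPM). Those of Mir222 were Mir874 (112 ± 9.35 CPM), Mir410 (112 ± 2.09 CPM), Mir101a (107 ± 12.6 CPM) and Mir770 (105 ± 13.5 CPM). All 8 overlapped the member in their values, so the exact places of Mir221 and Mir222 are not fixed by these libraries. Mir24-2, Mirlet7a-1 and Mir101a have near-identical copies whose shared reads are not counted, and their levels are uncertain. The same can hold for Mir10a and Mir10b, and for Mir23a and Mir23b, whose mature strands are nearly alike, but loss of their reads was not tested. Only the members were searched for shared stretches, so other genes named here can be affected too.

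**Figure D2:**
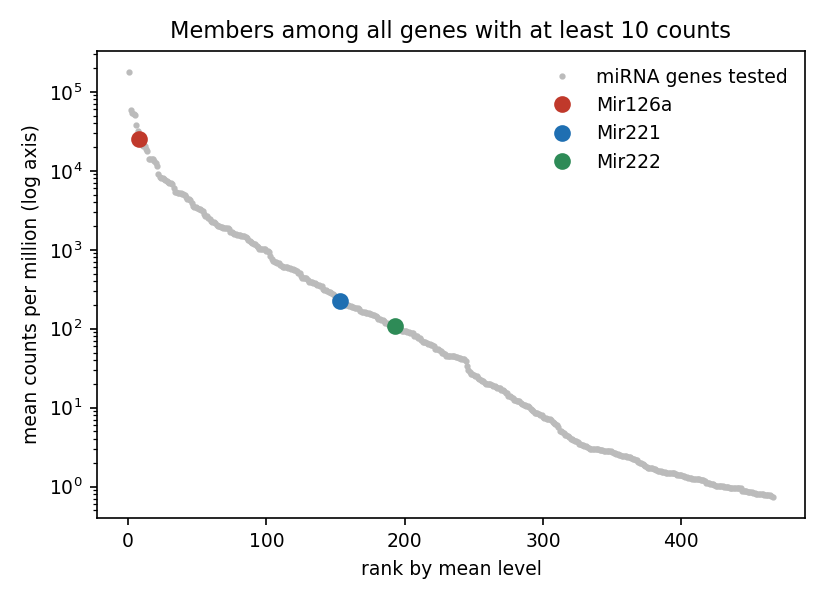
Mean level of the 466 miRNA genes with at least 10 summed counts, in CPM on a log axis, against their rank. Mir126a stands at rank 8 on the steep left end of the curve, and Mir221 and Mir222 at 153 and 193 on its slope.

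Between the pools, Mir126a was nearly level and Mir221 differed most of the 3. The ratio, taken as log2(CPM + 1) in replicate 2 minus that in replicate 1, was -0.07 for Mir126a (95% exact interval -0.08 to -0.06), -0.75 for Mir221 (-0.86 to -0.64) and -0.28 for Mir222 (-0.44 to -0.13). The median of the 466 genes tested was -0.11, so relative to it Mir126a stood at 0.05, Mir221 at -0.63 and Mir222 at -0.17. The sign for Mir126a depends on the scaling: it was 0.06 with edgeR's TMM and 0.09 with DESeq2 size factors, whereas Mir221 and Mir222 were below 0 under every scaling run. TMM raised all ratios by 0.13 and DESeq2 size factors by 0.16. The DESeq2 size factors were 1 for both libraries, so ratios with them compare counts without correction for depth. The interval of Mir222 reached or crossed 0 with TMM and with DESeq2 size factors.

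A gene was called when a two-sided exact binomial test gave an adjusted p (Benjamini-Hochberg, over all 466 genes) under 0.05 and the ratio was at least 2-fold. By this rule 0 of the 3 members were called, against 5.79% of all genes tested. The adjusted p of the exact test was 5.91e-38 for Mir126a, 1.43e-41 for Mir221 and 8.69e-04 for Mir222. Such values say little: 46.4% of all genes passed the p alone, because the test knows only counting error, and deep counts make a difference as small as that of Mir126a pass. edgeR's exact test gave p = 0.879 for Mir126a, 0.137 for Mir221 and 0.715 for Mir222 before adjustment, and an adjusted p of 1 for each. It called 4 genes, or 0.858% of those tested. Its spread is estimated from the difference between the same 2 libraries, so neither passing nor missing it supports a statement on a gene. On library totals the differences of all 3 members were larger than counting error, which for Mir222 no longer held with TMM (adjusted p 0.0969 by the exact binomial test) or DESeq2 size factors (adjusted p 0.190 by the same exact test). How they stand against the spread between pools cannot be tested with 1 library on each side.

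**Figure D3:**
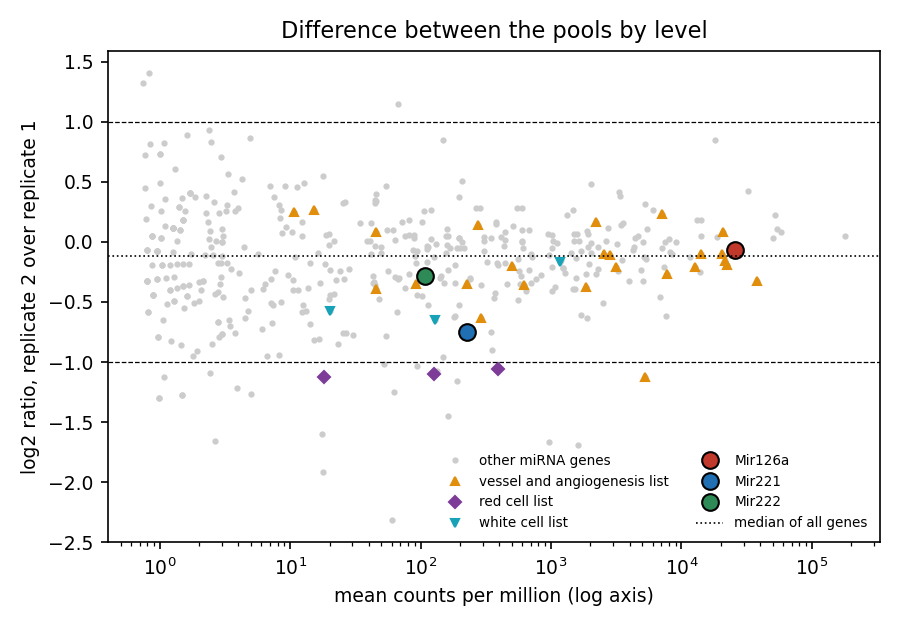
Log2 ratio of replicate 2 over replicate 1 for each tested gene against its mean level on a log axis, with the members, the vessel and angiogenesis list and the red and white cell lists marked. The dotted line is the median of all genes, -0.11, and dashed lines mark the 2-fold limit. Mir126a lies close to the median, Mir221 at -0.75 inside the limit, and the red cell genes just past the lower limit.

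The ratio of Mir126a was more typical than that of Mir221. Of all genes tested, 10.1% had a lower ratio than Mir221, 36.1% a lower one than Mir222 and 56.9% a lower one than Mir126a. Among the 63 genes within 2-fold of Mir221 in level, ratios ran from -1.45 to 0.85 with a median of -0.09, and 8 were lower than Mir221. Among the 70 within 2-fold of Mir222, ratios ran from -2.32 to 1.15 and 26 were lower than Mir222. The 14 within 2-fold of Mir126a ran from -0.32 to 0.85, with 6 lower and 8 higher than Mir126a. Among the genes within 2-fold of each member in level, those nearest to Mir221 in ratio were Mir329, of the imprinted Dlk1-Dio3 region, at -0.75 (344 ± 124 CPM), and Mir146, the gene of miR-146a, a brake on inflammatory signalling, at -0.65 (128 ± 40.7 CPM). With the same limit on level, those nearest to Mir222 were Mir500 at -0.28 and Mir668 at -0.29, and those nearest to Mir126a were Mir23a at -0.10 and Mir322 at -0.10. Genes of other levels can lie nearer in ratio. This likeness is over 2 libraries and is a description only.

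The difference in ratio between Mir126a and the pair was then tested directly, which is free of any scaling. The ratio of Mir221 was lower than that of Mir126a by 0.68 on the log2 scale (95% exact interval of the difference -0.79 to -0.57), with an adjusted p of 2.26e-34 by Fisher's exact test. That of Mir222 was lower by 0.22 (-0.37 to -0.06; adjusted p 0.0139 by Fisher's exact test). For the summed pair the difference was -0.53 (-0.62 to -0.44). By the same test 44.9% of the other genes tested differed from Mir126a, and 27.7% of the other genes tested were lower, so that a difference past it is common in these libraries. With a 2-fold limit on the difference, 29 of the 465 other genes tested were called, and neither Mir221 nor Mir222 was among them.

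**Figure D4:**
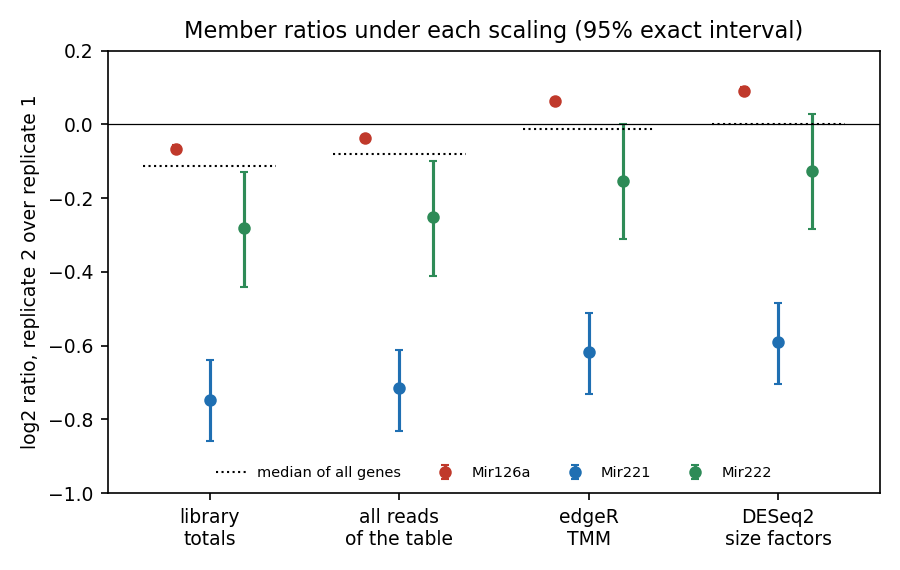
Log2 ratio of replicate 2 over replicate 1 for each member under each scaling, with bars for the 95% exact interval (counting error only) and a dotted line for the median of all genes. Mir126a moves from -0.07 to 0.09 across scalings, and the gap between Mir126a and Mir221 is about the same in each.

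Mir221 and Mir222 lie 599 bases apart by their starts, and were closer in level than most neighbouring pairs of tested miRNA genes. Mir221 exceeded Mir222 by 2.39-fold in replicate 1 (95% exact interval 2.19 to 2.61) and 1.73-fold in replicate 2 (1.57 to 1.91). These intervals do not overlap. On the log2(CPM + 1) scale the difference was 1.02 ± 0.33 (SD, n = 2). Pairs were formed among genes with at least 10 summed counts, next to each other on 1 strand, with starts under 10000 bases apart. Genes with fewer counts were skipped, so other miRNA genes can lie between the 2 genes of a pair. This gave 119 pairs. Their differences in level had a median of 3.16, and 96 of the 118 other pairs differed more than Mir221 and Mir222. The smallest difference was 0.17, for Mir302a and Mir302d, and the largest 11.61, for Mir411 and Mir1197. In replicate ratio the order turned round. The gap between Mir221 and Mir222 was 0.46, the median over pairs was 0.28, and 87 of the other pairs had a smaller gap. Among the 64 other pairs with at least 1000 summed counts in each gene, the median gap was 0.21 and 10 had a larger gap. So the pair was close in level, while its members kept pace between the pools less closely than the median pair. Pairs can share a gene and are not independent. Pairs with a gene that has near-identical copies, whose shared reads are not counted, were not set apart. Their differences in level can be overstated, so the place of Mir221 and Mir222 among the pairs is uncertain to that extent.

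**Figure D5:**
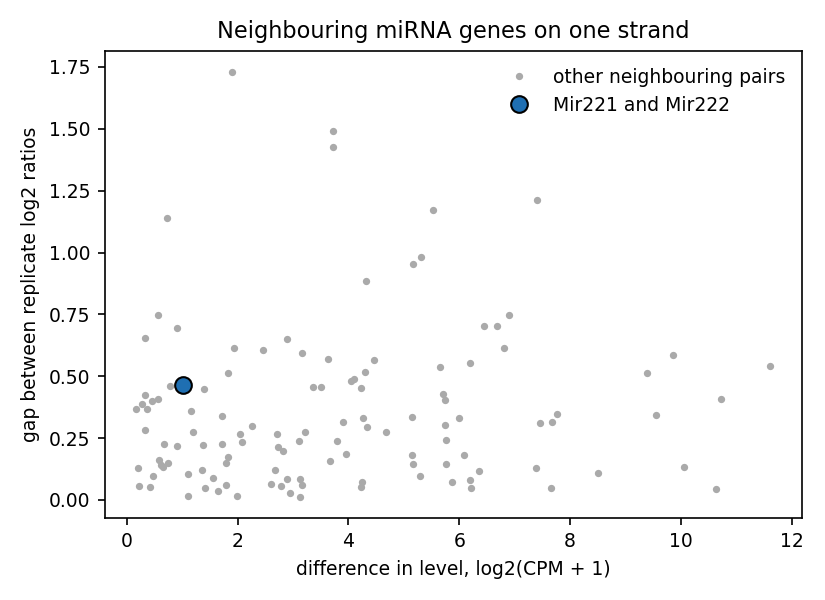
Each point is a pair of miRNA genes next to each other on 1 strand among the genes tested. The difference in level on the log2(CPM + 1) scale runs across and the gap between their replicate log2 ratios up. Mir221 and Mir222 lie at 1.02 across and 0.46 up.

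Other miRNAs known from vessel growth were mostly well above the pair. Of 27 genes in a list of vessel and angiogenesis miRNAs, drawn up with earlier results of these data known, 25 were matched in the tables and all 25 had at least 10 summed counts. Mir126b, also on the list, was not matched. The median level of the 25 was 2542 CPM, against 45.1 CPM for all genes tested. Only Mir10a was above Mir126a, and 20 of the 25 were above Mir221, beside 7 and 152 of all 466 genes tested. After Mir10a the highest were Mir130a, Mir17 and Mir23b, the last at 20896 ± 859 CPM and part of a cluster known from endothelium. Their median replicate ratio was -0.19, beside -0.11 for all genes. Of the 25, 1 was called lower and 0 higher, beside 5.15% called lower and 0.644% called higher among all genes. It was Mir10b, at -1.13 with 43140 against 22028 counts, and it came inside the 2-fold limit with TMM (-0.997) and DESeq2 size factors (-0.97).

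Among markers of other cell types, the red cell genes and Mir122 were called lower between the pools, and no white cell, muscle or epithelium gene was called. Mir144, Mir451a and Mir486 of red cells summed to 727 CPM in replicate 1 and 345 CPM in replicate 2. All 3 were called lower, beside 5.15% of all genes tested. With TMM, Mir144 (-0.97) and Mir451a (-0.93) came inside the 2-fold limit, and Mir486 (-1.01) stayed past it. With DESeq2 size factors none of the 3 red cell genes stayed past the 2-fold limit, at -0.94, -0.90 and -0.98 in the same order. The white cell genes Mir223, Mir146 and Mir150 stood at -0.17, -0.65 and -0.58, and the list summed to 1429 and 1228 CPM. Of its 5 genes in the tables, Mir142b and Mir146b were under 10 summed counts, 1 of them at 0, and Mir142 was not analysed here. Mir122, the main miRNA of liver cells, was called lower at -1.69 (2445 against 757 CPM). Of the muscle genes, Mir143 was at 0.05 and Mir145a at -0.51, and they summed to 178423 and 183398 CPM. The stomach epithelium genes, from the miR-200 family and Mir375, were all present, each at 1201 CPM or more on average. The 4 highest of these 6 stood at 0.04 for Mir429, 0.85 for Mir375, 0.05 for Mir200c and -0.21 for Mir200b. With DESeq2 size factors Mir375, at 1.01, was past the 2-fold limit. The part of blood cells in the ratios of Mir221 and Mir222 was not tested.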

How the data were processed

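Each deposited table holds raw read counts, with a line for each miRNA gene. The assembly is mm10 and the annotation GENCODE M4, per the deposited description files. What aligned, trimmed and counted the reads is not given in the sources used here. No header names the 3 count columns. The first is the other columns added up, the second holds nearly all reads of known miRNA genes and was taken as sense, and the third as the opposite strand. Lines that name no gene held 46.4% of reads in replicate 1 and 45.5% in replicate 2, among them multi-mapping reads at 25.5% and 27.0%. They stayed out of totals and tests. Of 1973 identifiers, 1894 matched GENCODE M21, and the others had 2 sense counts in all. List symbols absent from the tables were matched by RefSeq mature name (Mir18a, Mir92a-1 and Mir146a).

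CPM is over summed sense gene counts. Genes with at least 10 summed counts were tested by the exact binomial test and against Mir126a by Fisher's exact test, with Benjamini-Hochberg adjustment. These steps were checked on simulated counts that held counting error only, so the check does not cover spread between pools. Neither comparison has replicates on either side, so edgeR's quasi-likelihood test could not be used. edgeR's exact test used a common dispersion from an intercept-only design (coefficient of variation 0.201). The chi-square per degree of freedom between the libraries was 204, so they are not a repeat deposit of 1 library. Members and lists were chosen with earlier results of these data known. Named genes were the members, miRNA genes that overlap them, lie within 10000 bases of them or share a seed, the nearest in level, the nearest in ratio within 2-fold in level, and, in each list, the 4 highest and all called genes. Other genes (host and flanking genes, the extremes of the pairs and of the X-linked ratios, those with more opposite-strand reads, and Mir142b and Mir146b) were named after their values were seen. Alternatives covered scaling, pseudocount, count minimum, strand, test, fold limit, distance between neighbours and leaving out each replicate. Versions were edgeR 4.0.16, DESeq2 1.42.0, R 4.3.3, scipy 1.17.1, pandas 2.3.3 and Python 3.11.15.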

Additional observations from a re-analysis of the deposited data

Results flagged for a closer look

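Reads stood on the strand opposite to Mir126a, outside the counts used above and above the 3 counts that a count of 0 allows: 22 in replicate 1 and 40 in replicate 2. They were 0.0140% and 0.0239% of the reads at the gene, and Mir221 and Mir222 had 0 opposite-strand counts in both libraries. GENCODE M21 annotates Mir126b there, at chr2:26591363-26591420 on the minus strand, and the reverse complement of its hairpin is bases 7 to 64 of the 73 bases of Mir126a. Mir126b was not among the miRNA genes counted, so any reads from it have no count of their own here. RefSeq gives its mature strands, with the seeds in capitals, neither shared with miR-126a-3p:
miR-126b-5p: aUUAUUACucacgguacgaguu
miR-126b-3p: cGCGUACCaaaaguaauaaugug

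miR-126b-5p lies over 19 bases of miR-126a-3p on the other strand. The sense reads outnumbered the opposite ones 7136-fold in replicate 1 and 4179-fold in replicate 2. As log2 of replicate 2 over replicate 1 the opposite-strand level had a ratio of 0.71 (95% exact interval -0.08 to 1.53). Among the 99 genes with a mean of at least 1000 CPM, 85 had no opposite-strand count and 5 had a higher share than Mir126a: Mir337, Mir708, Mir203, Mirlet7b and Mir183. What these reads are was not tested.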

How the results depend on the processing

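The members' order in level and the sign of the Mir221 and Mir222 ratios held under every alternative run. With all reads of the table as the total, mean levels were 13407 CPM for Mir126a, 118 for Mir221, 56.4 for Mir222 and 174 for the pair. The Mir126a ratio of -0.066 turned to 0.063 with TMM, 0.091 with DESeq2 size factors and 0.063 in edgeR's exact test, which uses TMM. With no fold limit all 3 members passed, at -0.066, -0.75 and -0.28. The 27 genes called became 16 with all reads as the total, 13 with pseudocount 5, 16 with a minimum of 100, 216 with no fold limit and 4 in edgeR's exact test. DESeq2 size factors gave 6 higher and 16 lower calls, against 3 and 24. Against Mir126a, 209 genes differed, and 29 with a 2-fold limit, which left out Mir221 (-0.68) and Mir222 (-0.22). The red cell median of -1.10 became -0.97 with TMM and -0.94 with DESeq2 size factors. The epithelium median of -0.00139 became 0.13 and 0.16, and that of all genes 0 with DESeq2 size factors. The median span of neighbouring pairs, 3.16, became 3.05 with pseudocount 5. With 1 replicate left out, the Mir126a excess over the pair was 6.03 to 6.56 and the span of Mir221 and Mir222 0.78 to 1.25 on the log2 scale. TMM and DESeq2 size factors shift all ratios by 0.13 and 0.16, and the changes of sign and of list medians given for them follow from that shift. DESeq2 size factors are set from the median ratio, so the median of 0 is built in. Why the scalings differ was not tested. No paired analysis was possible because there was only 1 group. Counts limited Mir222 most, whose interval was the widest of the 3.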

Other observations

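Mir221 and Mir222 are X-linked, and the labels give no sex ratio for either pool. Of the 43 other X-linked miRNA genes tested, 24 were below 0 in replicate ratio and 19 above, with a median of -0.07, and 0 were called. Among all genes tested, 63.3% were below 0 and 5.79% were called, so these counts are near the background. Ratios ran from -0.83 for Mir5132 to 0.52 for Mir19b-2. Only Mir5132 was lower than Mir221, and 15 were lower than Mir222.

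The seed of miR-126a-3p holds the dinucleotide CG, as do 13.0% of the 1679 mature names in the RefSeq table. The seed shared by miR-221-3p and miR-222-3p does not. These values were looked at after the counts were seen and bear on no test.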
